A study of Mus musculus with 16 samples.

Results

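Regulatory T cells (Treg) were compared by their surface CD103 within the cells that lacked ICOS, directly after sorting. The comparison set the 2 arrays labelled CD103pos ICOSneg (CD103 single-positive) against the 2 labelled CD103neg ICOSneg (double-negative), 4 of the 16 arrays of the series, chosen by their titles alone. All Treg came from wild type C57BL/6 female mice aged 8 to 12 weeks, and lymph nodes of several sites were pooled. Each group held 2 biological replicates, and the series text speaks of independent experiments. The number of mice behind an array is not given in the sources used here. For comparison, the fresh ICOS single-positive and double-positive subsets (2 arrays each) and the same 4 subsets re-sorted after 3 days in a suppression assay with congenic naive CD4 cells, irradiated Rag2-/- splenocytes and soluble anti-CD3 were also used.

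CD103 is the alpha chain of an integrin that pairs with the beta 7 chain and binds E-cadherin on epithelial cells. It is induced in T cells by TGF-beta and marks T cells that reside in or home to epithelial tissue, and among Treg it is found on antigen-experienced cells. ICOS is a costimulatory receptor of the CD28 family that is raised on activated T cells and supports effector Treg. Cells that lack ICOS therefore include the resting, lymph node homing part of the Treg pool, and the CD103-positive cells among them are the subset described here.

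Expression was measured as log2 intensity, on which a difference of 1 is a 2-fold difference, for 19938 genes. The sort genes were read first. Itgae, which encodes CD103, was at 7.81 and 7.25 on the double-negative arrays and at 11.78 and 11.89 on the CD103 single-positive arrays. Both CD103 single-positive arrays lay far above both double-negative arrays, 19.7-fold on average (log2 difference 4.30, SE 0.82). Its limma adjusted p was 0.146 on all 16 arrays and 0.00347 on the fresh arrays alone.

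Icos was at 10.59 and 10.40 in double-negative and at 11.21 and 11.47 in CD103 single-positive cells, against 12.61 and 12.65 in ICOS single-positive cells. Both ICOS-negative subsets thus lay below the ICOS-positive one, and the CD103 single-positive arrays lay above the double-negative arrays without overlap, although the difference of 0.85 did not pass (limma adjusted p = 1.0). Foxp3, the lineage transcription factor of Treg, was at 12.56 and 12.16 against 12.62 and 12.43, and Il2ra, which encodes CD25, at 12.58 and 12.53 against 12.68 and 12.65. Cd4 and Cd3e lay between 11.19 and 12.69 on these 4 arrays. The Treg label was borne out on all 4 arrays by these markers.

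Of the 19938 genes, 17 passed the test between fresh CD103 single-positive and double-negative cells (0.0853%), 13 higher (0.0652%) and 4 lower (0.0201%) with CD103. A gene passed at a limma Benjamini-Hochberg adjusted p below 0.05, and 794 genes had an unadjusted p below 0.05. Differences of more than 2-fold numbered 103 higher and 25 lower. Over all genes 47.0% of differences were positive and the median difference was -0.01. Within the pair of double-negative arrays 131 genes differed more than 2-fold, and within the CD103 single-positive pair 148 did. Between single arrays of both subsets, 131 did in replicate 1 and 198 in replicate 2. The 103 and 25 are differences of means of 2 arrays, which vary less, so they are not a like measure.

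The count depended on which arrays entered. Replicate 2 of activated ICOS single-positive cells stands apart from its partner, with 685 genes more than 2-fold apart and Foxp3 at 8.53 against 12.64, and it enters the estimate of the spread behind every p-value. Without it 74 genes passed, all 17 among them, and on the 8 fresh arrays alone 72 passed, 11 of the 17 among them. With 1 of the 4 compared arrays left out, 5 to 16 genes passed, the fewest without CD103 single-positive replicate 1, and 10 and 9 passed without double-negative replicate 1 and 2. Cybb, Cd8a, Hpgds and Noxa1 passed whichever of these 4 arrays was left out.

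Of the genes that passed, 2 encode components of NADPH oxidases. This kind of enzyme complex moves electrons across a membrane onto oxygen to form superoxide, and is best known from phagocytes. Cybb, which encodes its catalytic subunit gp91phox, was at 8.48 and 8.11 in double-negative and at 10.84 and 11.00 in CD103 single-positive cells. The groups were more than 2 log2 units apart, and the 6.16-fold rise was the largest among the genes that passed (log2 difference 2.62, SE 0.24, limma adjusted p = 0.00247).

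Noxa1, which encodes an activator subunit of the related oxidase Nox1, was at 6.20 and 6.11 against 7.70 and 7.93. Its levels were below the median of all genes on the double-negative arrays (6.60 and 6.56) without CD103 and above the array median with it (log2 difference 1.66, SE 0.12, limma adjusted p = 0.000243). Ncf1, which encodes the organiser subunit p47phox, was at 7.93 and 8.04 against 8.78 and 8.81. These arrays did not overlap either, but the difference of 0.81 did not pass (SE 0.67). Cyba, the membrane partner of Cybb, was at 11.98 and 11.73 against 11.99 and 11.58, with overlap. Rac2, the GTPase of the complex, was at 13.04 and 12.75 against 13.03 and 12.91, also with overlap. Of 12 measured genes of the oxidase list 2 rose, 10 had a positive difference, and the median was 0.09. Without overlap 6 were higher (50.0%) and 0 lower, against 12.3% and 13.6% of all genes.

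Cd8a, the alpha chain of the CD8 coreceptor, rose 3.28-fold, from 6.27 and 6.14 to 7.78 and 8.05 (log2 difference 1.71, SE 0.12, limma adjusted p = 0.000243). The beta chain gene Cd8b1 was at 8.95 and 8.80 against 8.95 and 8.94. The alpha chain thus differed between the subsets, while the beta chain lay between 8.80 and 8.95 on all 4 arrays.

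Because Cybb and Cd8a are also markers of other cells, those cells' marker lists were read beside them. Of 12 measured CD8 T and NK cell markers, Cd8a alone passed, 8 differences were positive, and the median was 0.07. Without overlap 3 genes were higher (25.0%) and 2 lower (16.7%), against 12.3% and 13.6% of all genes. The summed linear intensity of the 12 markers was 2432 and 1755 in double-negative and 3173 and 2721 in CD103 single-positive cells. Nkg7, a granule protein of cytotoxic cells, was at 9.30 and 8.63 against 10.06 and 9.95, the chemokine gene Ccl5 at 8.90 and 8.10 against 9.83 and 9.12, and the perforin gene Prf1 at 7.91 and 8.03 against 7.24 and 7.14. The first pair thus lay higher and Prf1 lower with CD103, without overlap, and the limma adjusted p-values were 1.0, 0.531 and 1.0. Gzma, a granule protease of cytotoxic cells, was at 7.91 on double-negative replicate 1 and between 5.16 and 5.31 on the other 3 arrays, and Gzmb, another such protease that is not in this list, was at 8.97 on that array and between 5.21 and 6.22 on the others.

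Of 19 measured markers of myeloid and dendritic cells 0 passed in limma, 12 differences were positive and the median was 0.06. Their summed intensity was 3637 and 3271 in double-negative and 5502 and 3002 in CD103 single-positive cells, so only CD103 single-positive replicate 1 stood out. Lyz2, which encodes lysozyme, was at 8.15 and 6.17 against 9.32 and 7.03 and was higher on replicate 1 than on replicate 2 in both subsets. Cd74, the invariant chain of MHC class II, was at 9.14 and 7.91 against 10.31 and 8.36, and H2-Ab1, an MHC class II chain, at 7.95 and 6.98 against 9.27 and 6.90. Mpeg1, Lyz1 and Spi1 had differences of 0.58, 0.48 and 0.44, and each was highest on CD103 single-positive replicate 1. Csf1r, the receptor of macrophage colony stimulating factor, stayed between 5.79 and 6.75, Itgam between 5.24 and 5.74, and Cd14 between 4.96 and 5.13. In all 10 of the 19 were below the array median on all 4 arrays. Cybb was at 10.84 on CD103 single-positive replicate 1 and at 11.00 on replicate 2, and whether its level follows this list was not tested.

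Dendritic cells that carry CD103 are a further cell type the sort could hold. Of 12 measured markers 0 passed in limma, 11 differences were positive, and 4 genes were higher (33.3%) and 0 lower without overlap, with a median of 0.09. Over all genes the shares without overlap were 12.3% higher and 13.6% lower, and 47.0% of differences were positive. Naaa, a lysosomal amidase, was at 7.88 and 7.68 against 8.23 and 8.42, and Irf8 and Ppt1 had differences of 0.41 and 0.35. Their summed intensity was 2198 and 2018 in double-negative and 2654 and 2653 in CD103 single-positive cells. Clec9a, a defining lectin of these cells, lay between 4.42 and 4.59 on all 4 arrays. Xcr1, their chemokine receptor, was at 5.62 and 5.89 against 6.23 and 6.11, below the array median throughout, and 8 of the 12 were below it on all 4 arrays.

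Of 10 measured B cell markers 0 passed in limma and 9 differences were positive, with a median of 0.38. Replicate 1 gave a median of 0.79 and replicate 2 one of -0.09, and 7 of the 10 were below the array median on all 4 arrays. Cd79b, a signalling chain of the B cell receptor, was at 8.83 and 8.62 against 9.91 and 9.86, while its partner Cd79a was at 5.72 and 4.97 against 6.32 and 4.79. The part of these other cells in the results was not tested. On bulk samples, fewer cells of a type and less RNA per cell cannot be told apart.

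**Figure D1:**
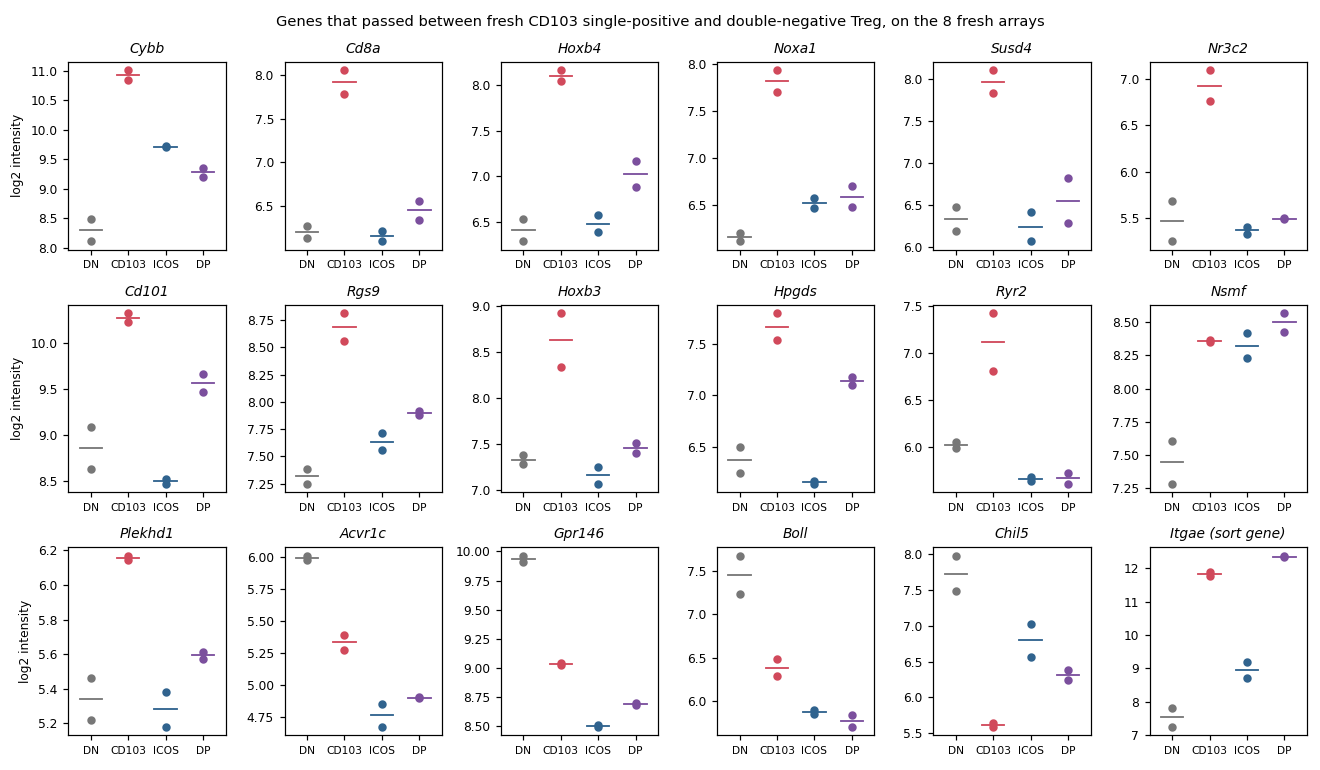
Log2 intensity of the 17 genes that passed, and of the sort gene Itgae, on each of the 8 fresh arrays (points) with the group mean (bars), where DN is double-negative, CD103 and ICOS are the single-positive subsets and DP is double-positive. Each panel has its own vertical range, which does not start at 0. In 12 of the 13 genes that rose, the CD103 single-positive mean is the highest of the 4 subsets, Nsmf being the exception.

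Hoxb4 and Hoxb3 are neighbouring homeobox genes of the Hoxb cluster, and Hoxb4 is known from blood stem cells. Hoxb4 rose from 6.54 and 6.29 to 8.16 and 8.04, 3.21-fold (limma adjusted p = 0.00415). Hoxb3 rose from 7.37 and 7.28 to 8.93 and 8.34, 2.47-fold (limma adjusted p = 0.0181). In the RefSeq annotation Hoxb4 lies within the span of Hoxb3, and whether the probes of one can detect transcripts of the other was not tested.

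A receptor, a surface protein and an enzyme came next. Nr3c2, the mineralocorticoid receptor, rose from 5.69 and 5.25 to 7.09 and 6.76, 2.75-fold (limma adjusted p = 0.00415). Cd101, a membrane protein of the immunoglobulin superfamily that is found on tissue-resident T cells, rose from 9.09 and 8.63 to 10.23 and 10.32, 2.67-fold (limma adjusted p = 0.0112). Hpgds, the haematopoietic prostaglandin D synthase, rose from 6.50 and 6.25 to 7.54 and 7.79, 2.44-fold (limma adjusted p = 0.00401). In none of the 3 did the groups overlap, and Cd101 alone had its levels above the array median in both subsets.

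Susd4, which encodes a complement inhibitor, rose from 6.47 and 6.19 to 8.10 and 7.83 (3.11-fold). Rgs9, a regulator of G protein signalling, rose from 7.39 and 7.25 to 8.56 and 8.81 (2.58-fold). Ryr2, a calcium release channel, rose from 5.99 and 6.05 to 6.80 and 7.43 (2.13-fold). Their limma adjusted p-values were 0.0112, 0.0476 and 0.0432, the last 2 close to the threshold.

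The smallest rises were those of Nsmf, from 7.61 and 7.28 to 8.37 and 8.36 (1.89-fold, limma adjusted p = 0.0476), and of Plekhd1, from 5.22 and 5.46 to 6.15 and 6.17 (1.76-fold, limma adjusted p = 0.0139). Plekhd1 stayed below the array median in both subsets. Clip3, at 7.06 and 6.91 against 8.55 and 8.28, was just outside the threshold with a limma adjusted p of 0.0627.

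Of the 4 genes that fell, Chil5, which encodes a chitinase-like protein, fell most. It was at 7.48 and 7.98 in double-negative and at 5.59 and 5.65 in CD103 single-positive cells, 4.32-fold lower (log2 difference -2.11, SE 0.26, limma adjusted p = 0.0139). Boll, an RNA-binding protein of the germ line, fell from 7.23 and 7.67 to 6.28 and 6.49 (2.10-fold, limma adjusted p = 0.0296). Gpr146, a G protein-coupled receptor, fell from 9.96 and 9.91 to 9.04 and 9.02 (1.87-fold, limma adjusted p = 0.0373). Acvr1c, a type I receptor of the TGF-beta superfamily, fell from 5.98 and 6.01 to 5.27 and 5.39 (1.58-fold, limma adjusted p = 0.0476), all below the array medians. None of the 4 passed in every fit that left out 1 of the compared arrays. Of the genes that rose, only Cybb, Cd8a, Hpgds and Noxa1 did.

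**Figure D2:**
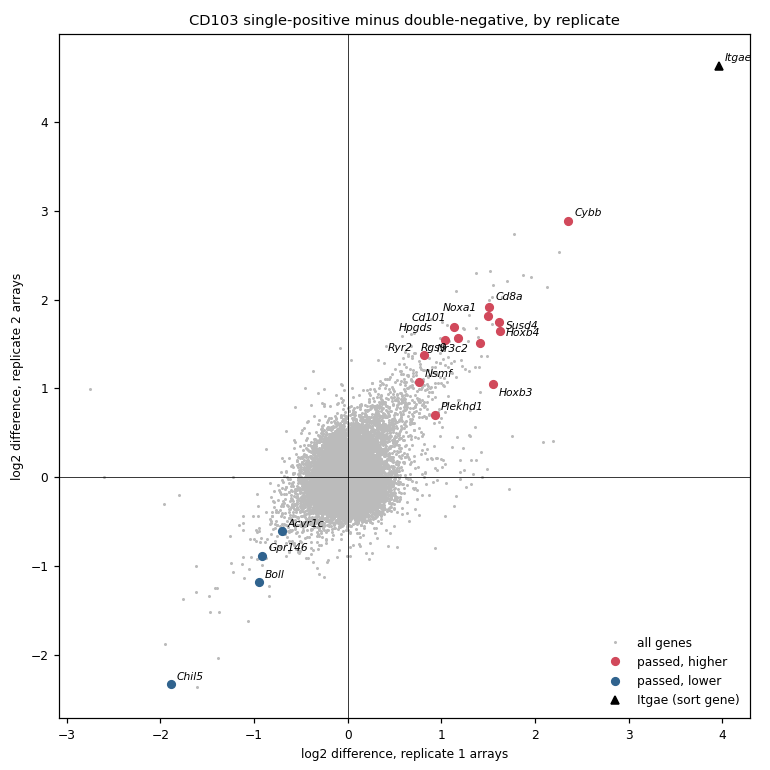
Log2 difference of CD103 single-positive minus double-negative cells in the replicate 1 arrays (horizontal) and in the replicate 2 arrays (vertical) for all 19938 genes (grey), the 13 genes that rose (red), the 4 that fell (blue) and Itgae (triangle). All 17 genes have the same sign in both replicates, from Cybb at the upper right to Chil5 at the lower left. The 17 were chosen on these same arrays, so the shared sign is a description.

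The bases just before the start of 4 of the genes that rose are shown because these genes were higher together in CD103 single-positive cells and their RefSeq window begins at the gene's own start. Plekhd1, Rgs9 and Ryr2 also meet both conditions, and the 4 were picked among the 7 after the values were seen and have the larger differences. The sequences are from RefSeq on GRCm38.p6, 250 bases each, read 5′ to 3′ on the gene's strand, and end at the base before the start. Capitals mark matches, on either strand, to 1 of 6 motifs: RUNX (TGTGGT), AP-1 (TGANTCA), SMAD (CAGACA), TCF (CTTTGA), KLF (CCNCNCCC) and ETS (AGGAAG). The windows are chr2:25095206-25095455 on the minus strand for Noxa1, chr6:71373177-71373426 on the plus strand for Cd8a, chr11:96318017-96318266 on the plus strand for Hoxb4 and chr3:101029554-101029803 on the minus strand for Cd101.
Noxa1: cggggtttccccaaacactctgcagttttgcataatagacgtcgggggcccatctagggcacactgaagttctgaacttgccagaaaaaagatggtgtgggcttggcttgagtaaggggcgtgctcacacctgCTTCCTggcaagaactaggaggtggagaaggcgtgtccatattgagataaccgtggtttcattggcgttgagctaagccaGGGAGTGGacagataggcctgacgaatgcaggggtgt
Cd8a: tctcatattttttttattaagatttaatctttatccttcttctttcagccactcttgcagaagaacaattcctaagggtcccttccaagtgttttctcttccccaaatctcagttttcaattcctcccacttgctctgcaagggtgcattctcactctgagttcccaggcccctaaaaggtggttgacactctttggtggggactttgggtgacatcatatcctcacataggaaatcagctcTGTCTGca
Hoxb4: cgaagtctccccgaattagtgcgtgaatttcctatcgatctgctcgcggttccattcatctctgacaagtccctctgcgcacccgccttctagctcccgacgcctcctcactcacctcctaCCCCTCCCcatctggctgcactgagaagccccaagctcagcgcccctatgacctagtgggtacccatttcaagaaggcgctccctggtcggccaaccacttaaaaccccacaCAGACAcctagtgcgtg
Cd101: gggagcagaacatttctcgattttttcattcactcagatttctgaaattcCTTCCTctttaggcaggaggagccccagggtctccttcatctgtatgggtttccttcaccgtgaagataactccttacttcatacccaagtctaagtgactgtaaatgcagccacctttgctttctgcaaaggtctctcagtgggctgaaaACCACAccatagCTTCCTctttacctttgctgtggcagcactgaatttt

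The windows hold few and different motifs. Counted back from the start, with -1 the last base before it, Noxa1 has an ETS match whose first base is at -117 and a KLF match at -37, and Cd8a has a SMAD match at -8. Hoxb4 has a KLF match at -129 and a SMAD match at -17, and Cd101 has a RUNX match at -49 between ETS matches. Of the 17 genes that passed, 15 were in the promoter table, and for 8 the window begins at the gene's start. Among these 8, KLF letters were in 5, ETS letters in 4, RUNX and SMAD letters in 2 each, and AP-1 and TCF letters in 0. Of all 32851 promoter windows of this length, 45.9% hold the KLF letters, 29.5% ETS, 14.0% RUNX, 17.1% SMAD, 6.75% AP-1 and 13.8% TCF. With 8 windows these shares cannot be told apart, and a match is a description of letters only.

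Among the 4 fresh subsets, 12 of the 13 genes that rose had their highest mean in CD103 single-positive cells. Over all genes 5076 of 19938 did, but the 13 were chosen for being high there, so the count is a description. Cybb was at 9.71 and 9.72 in ICOS single-positive and at 9.20 and 9.36 in double-positive cells, between the 2 ICOS-negative subsets. Cd8a was at 6.22 and 6.10 and at 6.35 and 6.56, near its double-negative level. The exception, Nsmf, was at 8.42 and 8.23 in ICOS single-positive and at 8.57 and 8.43 in double-positive cells, as high as with CD103 alone.

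Of the 4 genes that fell, Chil5 alone was lowest in CD103 single-positive cells, with 6.57 and 7.03 in ICOS single-positive and 6.24 and 6.39 in double-positive cells. Acvr1c, Gpr146 and Boll were lower still in both ICOS-positive subsets. Boll, for example, was at 5.85 and 5.89 in ICOS single-positive and at 5.70 and 5.83 in double-positive cells.

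The same CD103 difference was then read in ICOS-positive cells, as double-positive minus ICOS single-positive, in 4 arrays that the comparison above does not use. There 67 of 19938 genes passed (0.336%), 34 higher and 33 lower, or 48 and 70 with quantile normalization applied again. Of the 13 genes that rose with CD103 in ICOS-negative cells, 12 had a positive difference here, against 52.0% of all genes, with a median of 0.29. Hpgds and Cd101 passed in this comparison as well. Both comparisons share each gene's estimate of the spread, so passing in both is not fully independent.

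Hpgds was at 6.15 and 6.17 in ICOS single-positive and at 7.10 and 7.17 in double-positive cells (log2 difference 0.98, limma adjusted p = 0.0132). Cd101 was at 8.47 and 8.52 against 9.66 and 9.47 (log2 difference 1.07, limma adjusted p = 0.0307). These 2 genes thus rose with CD103 both with and without ICOS. The difference of Cybb was -0.44 and did not pass, and those of the other 10 lay between 0.00 and 0.54. The 4 genes that fell had differences between -0.48 and 0.18, 2 positive and 2 negative, and 0 passed in limma, with a smallest adjusted p of 0.734.

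A test of the difference between both CD103 differences asked for which genes the CD103 difference was unlike in ICOS-negative and ICOS-positive cells. In this test 9 of 19938 genes passed (0.0451%), 4 higher (0.0201%) and 5 lower (0.0251%), or 10 and 7 with quantile normalization applied again, and 987 had an unadjusted p below 0.05. With 1 of the 8 fresh arrays left out 0 to 8 passed, with 0 (749 to 1120 at an unadjusted p below 0.05) when replicate 2 of either ICOS-negative subset or any array of ICOS single-positive cells was missing. The genes named above for their difference in ICOS-negative cells lean to the same sign here by that choice.

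Cybb differed by 3.06 more in ICOS-negative than in ICOS-positive cells (SE 0.34, limma adjusted p = 0.0165). Noxa1 differed by 1.60 more (limma adjusted p = 0.0120) and Cd8a by 1.42 more (limma adjusted p = 0.0189). For these 3 genes the rise with CD103 was thus larger without ICOS. The other gene in this direction was Cacna1d, which encodes a subunit of a voltage-gated calcium channel. It was at 5.79 and 5.51 in double-negative and at 6.09 and 6.01 in CD103 single-positive cells, but fell from 7.22 and 7.06 in ICOS single-positive to 6.14 and 5.86 in double-positive cells.

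The 5 genes of the opposite direction were close to level in ICOS-negative cells and rose with CD103 in ICOS-positive ones. Abi3bp, an extracellular matrix protein, was at 5.39 and 5.26 in double-negative, 5.26 and 4.86 in CD103 single-positive, 4.73 and 4.80 in ICOS single-positive and 7.60 and 7.02 in double-positive cells. Ptgdr2, the receptor of prostaglandin D2 known as CRTH2, was at 5.95 and 6.34, 6.45 and 6.13, 6.29 and 6.13, and 8.87 and 8.62 in the same order. Double-positive cells alone stood out for both genes. Kcnk1, Sdc1 and Slc27a6, which encode a potassium channel, the proteoglycan syndecan-1 and a fatty acid transport protein, had differences of -0.21, -0.04 and -0.04 in ICOS-negative cells and of 1.31, 1.44 and 1.15 in ICOS-positive cells.

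**Figure D3:**
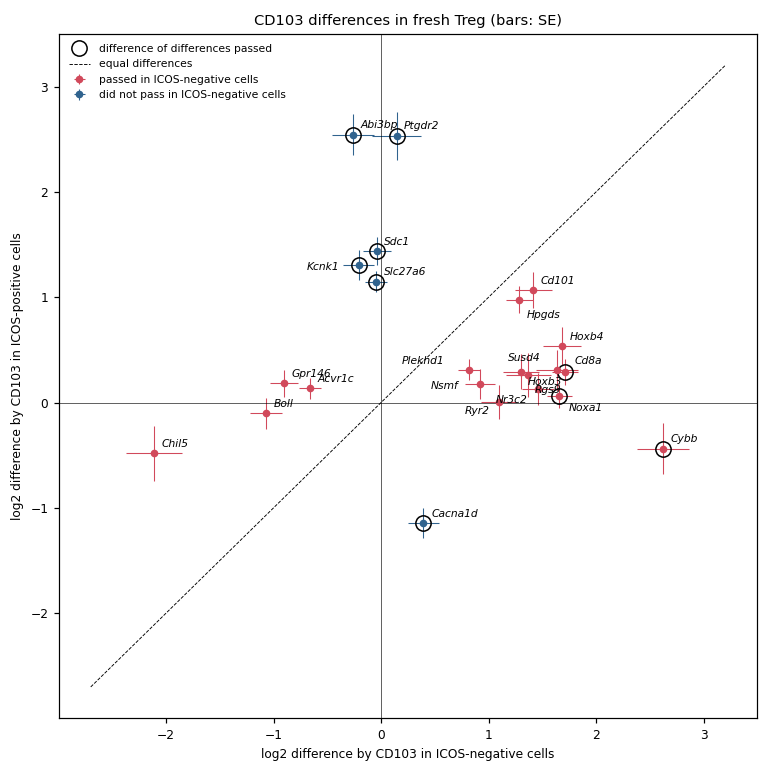
Log2 difference by CD103 in fresh ICOS-negative cells (horizontal) and in fresh ICOS-positive cells (vertical), with SE bars, for the 17 genes that passed in ICOS-negative cells (red) and for 6 further genes that passed the test of the difference between both (blue). Rings mark the 9 genes that passed that test. Cybb lies at 2.62 and -0.44, while Abi3bp and Ptgdr2 lie near 0 on the horizontal axis and above 2.5 on the vertical one.

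After the suppression assay the difference was read again between activated CD103 single-positive and activated double-negative cells, in a further 4 arrays. There 1 of 19938 genes passed (0.00502%), Cd40lg, which was lower, and 578 had an unadjusted p below 0.05. The 13 genes that rose in fresh cells had 9 positive differences, against 59.7% of all genes, with a median of 0.20 and 0 that passed in limma (smallest adjusted p = 0.843). Cybb was at 6.05 and 5.32 in activated double-negative and at 6.19 and 6.09 in activated CD103 single-positive cells, and Cd101 at 7.25 and 7.17 against 7.31 and 6.96. Both genes were at lower levels than in fresh cells of either subset, and their groups were close or overlapped.

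The largest difference among the 13 in activated cells was that of Cd8a, 0.49, from 5.99 and 5.87 to 6.43 and 6.40 without overlap. The fresh and activated CD103 differences were compared directly, and 0 of 19938 genes passed in limma (0.0%), with 630 at an unadjusted p below 0.05 and 1 passing with limma's trend and robust prior. The smallest adjusted p was 0.0690, that of Noxa1, whose difference was larger by 1.43 in fresh cells. In this fit a loss of the difference after activation was therefore not shown for any single gene. The count moved when the array that stands apart was left out, as given in the closing section.

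Gene lists were read for how many members did what, without a test. Over all genes 12.3% lay higher on both CD103 single-positive arrays than on both double-negative arrays, and 13.6% lay lower. Lists are read against these shares and against the 47.0% of positive differences and the median of -0.01 given above. Where 0 members passed, the count is that of limma at the same threshold, for which 794 of all genes had an unadjusted p below 0.05.

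The Treg core list held 20 measured genes, of which 0 passed. All 20 differences were positive, 15 genes were higher without overlap, and the median was 0.54. Tigit, an inhibitory receptor, was at 9.10 and 7.70 against 10.26 and 9.80, and Itgb8, an integrin chain that activates latent TGF-beta, at 9.02 and 8.94 against 9.83 and 10.15. Nt5e and Entpd1, the ectoenzymes CD73 and CD39 that form adenosine, differed by 0.95 and 0.85. The differences of Foxp3 and Il2ra, 0.17 and 0.11, were among the smallest of the list.

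Of 22 measured effector Treg genes 0 passed, 16 were higher without overlap and 1 lower, and the median was 0.66. In all 17 differences were positive and 5 negative, those of Gzmb, Lgals1 and Gata3 being -0.88, -0.42 and -0.20. Ahr, the aryl hydrocarbon receptor, was at 8.55 and 7.76 against 9.78 and 9.43. Fgl2, a secreted suppressive mediator, was at 6.32 and 6.21 against 7.88 and 8.38, and Ebi3, a subunit of interleukin-35, at 7.69 and 7.05 against 9.19 and 9.04. For 17 of the 22 the CD103 single-positive mean lay between the means of double-negative and double-positive cells, against 46.9% of all genes. Klrg1, a lectin-like inhibitory receptor, was at 5.80 and 5.30 in double-negative and at 7.45 and 7.33 in CD103 single-positive cells, with a mean of 11.93 in double-positive cells.

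The list of quiescence and central T cell genes ran the other way. Of 18 measured genes 0 passed, 11 were lower without overlap, 0 were higher without overlap, and the median was -0.43. Dapl1 was at 10.13 and 10.71 against 8.53 and 8.35, and Igfbp4, an insulin-like growth factor binding protein, at 10.25 and 10.41 against 8.30 and 8.53. S1pr1, the receptor by which T cells leave lymph nodes, was at 11.57 and 11.66 against 10.44 and 10.68 and was just outside the threshold (log2 difference -1.06, limma adjusted p = 0.0578). Ccr7, Bcl2 and Foxp1, by contrast, had differences of 0.02, -0.14 and -0.07. For 16 of the 18 the CD103 single-positive mean lay between those of double-negative and double-positive cells.

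**Figure D4:**
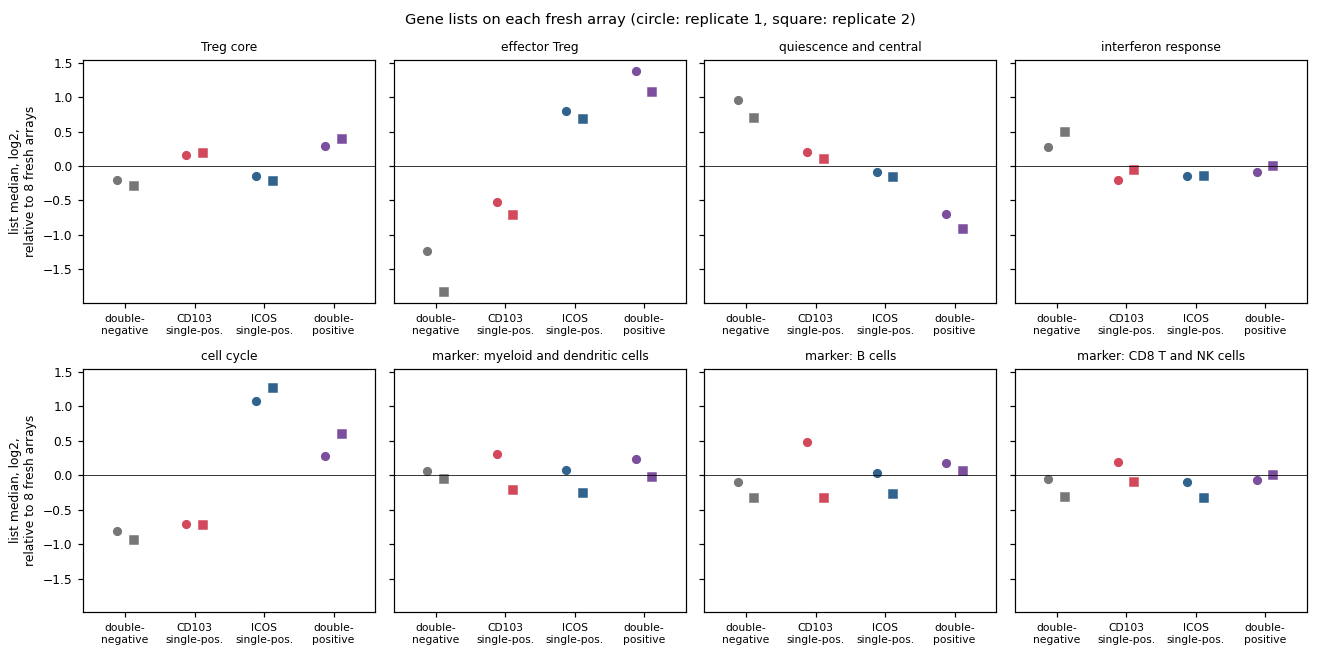
Median over the members of 8 gene lists on each fresh array, in log2 relative to each gene's mean over the 8 fresh arrays (circle, replicate 1; square, replicate 2). The effector list is at -1.23 and -1.83 in double-negative, -0.53 and -0.72 in CD103 single-positive, 0.79 and 0.68 in ICOS single-positive and 1.38 and 1.08 in double-positive cells, and the myeloid and B cell lists are highest on CD103 single-positive replicate 1 of the 4 ICOS-negative arrays.

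Cell cycle genes set the CD103 single-positive subset beside the double-negative one. Of 29 measured genes 0 passed, 6 were higher and 3 lower without overlap, and the median difference was 0.07. Relative to the mean of the 8 fresh arrays the list median was -0.81 and -0.95 in double-negative, -0.71 and -0.72 in CD103 single-positive and 1.07 and 1.27 in ICOS single-positive cells. Mki67, a marker of dividing cells, was at 6.91 and 6.22 against 7.29 and 6.81, while its mean was 10.79 in ICOS single-positive cells. Glycolysis genes had a median of 0.17, with 4 of 12 higher without overlap, and T cell receptor immediate early genes one of 0.01, with 1 of 20 higher and 1 lower.

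Among 18 measured integrin and adhesion genes, Itgae included, 0 passed, 11 were higher and 2 lower without overlap, and the median was 0.35. Itgb7, the beta chain that pairs with CD103, was at 11.32 and 11.09 against 11.05 and 11.10, with overlap. Itgb3, the integrin beta 3 chain, was at 9.47 and 9.19 against 7.85 and 7.89, the lowest of the 4 fresh subsets (log2 difference -1.46, limma adjusted p = 0.124).

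Of 18 measured receptors for chemokines and related guidance signals 0 passed, 8 were higher and 3 lower without overlap, and the median was 0.15. Ccr9, the receptor that guides T cells to the small intestine, was at 9.39 and 8.71 against 11.09 and 10.92. Ccr4, a skin homing receptor, was at 9.29 and 8.49 against 10.83 and 10.53, and Cxcr3, a receptor of type 1 inflammation, at 8.31 and 8.08 against 9.86 and 9.81. All 3 were higher without overlap. Their differences were 1.95, 1.79 and 1.64 with limma adjusted p-values of 0.252, 0.877 and 0.502.

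Ccr9 is also a target of retinoic acid, a vitamin A product that imprints gut homing. Dhrs3, an enzyme that reduces retinal, was at 8.20 and 7.88 against 10.07 and 10.15 (log2 difference 2.07, limma adjusted p = 0.392). The retinoid list as a whole had a median of 0.07, with 5 of 17 genes higher without overlap and 0 lower. Of 22 measured TGF-beta pathway genes 0 passed, 7 were higher and 2 lower without overlap, and the median was 0.03. Tgfbr1, the type I receptor of TGF-beta, was at 10.15 and 10.33 against 11.00 and 11.33.

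Genes known as higher in tissue-resident T cells held 18 measured members, of which Cd101 and Hpgds passed, 10 were higher and 1 lower without overlap, and the median was 0.26. The 1 was Cd69, an early activation marker that retains T cells in tissue, at 11.15 and 11.30 against 10.99 and 11.07, and Rgs2, Cxcr6 and Itga1 had differences of -0.26, 0.03 and 0.01. This list also holds Itgae, for which the cells were sorted. Of 11 measured genes known as lower in such cells 0 passed, 6 were lower and 2 higher without overlap, and the median was -0.22. Besides S1pr1 these were led by Rasgrp2, an activator of Rap GTPases, at 10.19 and 10.13 against 8.97 and 9.06. Tbx21, which encodes the transcription factor T-bet, lay the other way, at 7.27 and 6.80 against 7.77 and 7.52. Klf2, the transcription factor that drives S1pr1, was at 10.71 and 10.45 against 9.80 and 9.46.

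Of 19 measured coinhibitory and costimulatory genes 1 passed, Cd101, 18 differences were positive, 11 genes were higher without overlap, and the median was 0.38. Lag3, an inhibitory receptor that binds MHC class II, was at 7.94 and 7.51 against 8.54 and 8.36. Pdcd1, which encodes PD-1, was at 9.40 and 8.99 against 9.91 and 9.86. Of 15 measured prostaglandin genes 1 passed, Hpgds, and the median was 0.06. Ptger2, a receptor of prostaglandin E2, was at 7.90 and 7.24 against 8.40 and 8.46.

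Interferon response genes had no positive difference. Of 17 measured genes 0 passed, 11 were lower without overlap, and the median was -0.35. Oas2, a sensor of double-stranded RNA, was at 8.27 and 8.21 against 6.90 and 6.69, and Oasl1 at 8.21 and 8.46 against 7.69 and 7.74. Stat2, Isg20 and Mx1 had differences between -0.05 and -0.01. Gbp2b, a guanylate-binding protein that interferon gamma induces and that is not in the list, was at 7.51 and 7.61 against 9.77 and 10.14 (5.27-fold, limma adjusted p = 0.200). In ICOS-positive cells 9 of the 17 differences by CD103 were positive, with a median of 0.20. Cholesterol synthesis genes had a median of -0.16, with 5 of 16 lower and 0 higher without overlap.

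In the remaining lists 0 members passed. Follicular T cell genes had a median of 0.21, with 7 of 14 higher and 0 lower without overlap, led by the B cell follicle receptor Cxcr5 at 8.30 and 7.49 against 9.01 and 8.88. Of 22 cytokine receptors 10 were higher and 5 lower without overlap (median 0.14), among them Il10ra, a chain of the interleukin-10 receptor, at 9.11 and 9.02 against 9.98 and 10.03. Suppression and cytolysis genes had 7 of 17 higher and 3 lower (median 0.02), and Gimap genes 3 of 8 higher and 0 lower (median 0.10). Killer lectin-like receptors had 4 of 14 higher and 1 lower (median 0.04). Of these 14 receptors 11 were below the array median on all 4 arrays. The medians of helper lineage, T cell receptor signalling, Bcl2 family and heat shock genes lay between -0.07 and 0.06.

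Of the other marker lists, that of gamma delta and innate-like T cells had a median of 0.07 over 6 genes and a summed intensity of 1641 and 1015 in double-negative against 3050 and 2074 in CD103 single-positive cells. Its largest difference was that of Maf, a transcription factor also in the effector list, at 10.23 and 9.14 against 11.29 and 10.70. Markers of activated conventional CD4 T cells had a median of -0.02 over 10 genes and a summed intensity of 2664 and 2280 against 2757 and 2487. Erythroid and platelet markers had a median of -0.07 over 6 genes and a summed intensity of 384 and 380 against 409 and 338. Stromal and endothelial markers had a median of -0.01 over 11 genes and a summed intensity of 2040 and 2002 against 1509 and 1383. Pecam1, an adhesion molecule of endothelial cells that T cells also carry, was at 10.42 and 10.32 against 9.58 and 9.54.

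**Figure D5:**
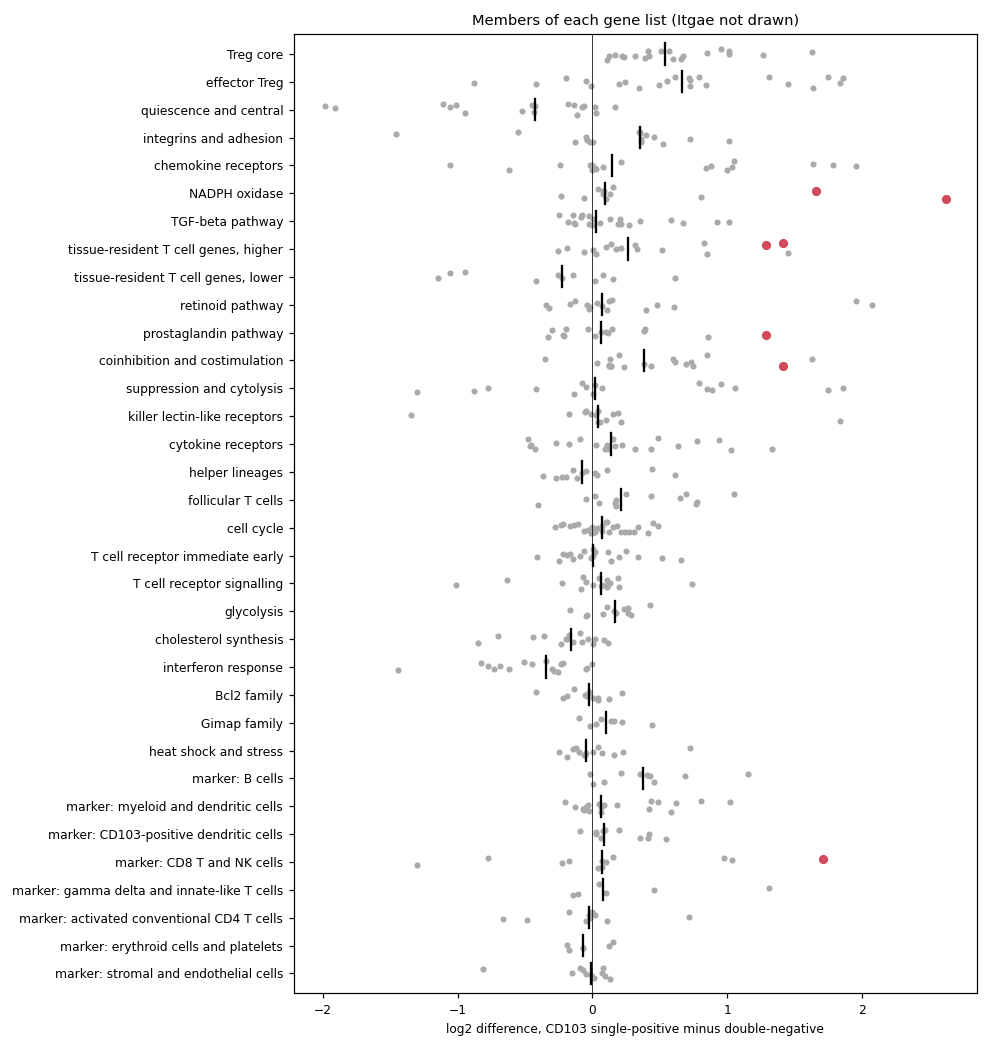
Log2 difference of CD103 single-positive minus double-negative cells for each member of 34 gene lists (grey points, red where the gene passed) with the list median (bar). Itgae, at 4.30, is left out of the drawing but counted in the medians. The Treg core and effector medians are 0.54 and 0.66, and the quiescence and interferon medians are -0.43 and -0.35.

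Large differences in the lower direction that did not pass are given as values. Pde3b, a phosphodiesterase that breaks cyclic AMP down, was at 6.84 and 7.21 against 5.45 and 5.17, and Adcy6, an adenylyl cyclase that makes it, at 8.64 and 8.42 against 6.88 and 7.04. Vipr1, a receptor for vasoactive intestinal peptide that signals through cyclic AMP, was at 8.11 and 7.72 against 6.69 and 6.47. The arrays of both subsets did not overlap for any of the 3, and the limma adjusted p-values were 0.810, 0.531 and 0.737.

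The others in this direction were Sema4a, a semaphorin (log2 difference -1.50), Klrb1b, an inhibitory lectin-like receptor (-1.35), Atp1b1, a subunit of the sodium pump (-1.32), and Slc16a5, a monocarboxylate transporter (-1.31). Slc16a5 was at 7.21 and 6.35 against 5.59 and 5.34, and it passed in ICOS-positive cells, where it fell by 1.46 (limma adjusted p = 0.0351). Pde3b was at 7.80 and 8.63 in ICOS single-positive cells, above both double-negative arrays.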

How the data were processed

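Each of 16 arrays had 1 column of log2 intensities deposited by the authors for 35556 probe sets. The submitters' processing notes name RMA and affy, without version or settings. Values lay between 3.02 and 14.2, with array medians over all probe sets between 6.26 and 6.48 (array medians in the results are over the genes used), and were not normalized again. RMA values include background, so folds of dim genes can be understated. The platform annotation gave 21789 probe sets 1 symbol, 1621 several and 12146 none. The brightest 1-symbol probe set stood for each of 19938 genes, of which 999 had several. RefSeq identifiers matched 21698 probe sets and 0 symbols changed. The annotation's build is not given in the sources used here.

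All comparisons came from 1 limma 3.58.1 fit (R 4.3.3) of 8 group means, with 8 residual and 2.90 prior degrees of freedom and Benjamini-Hochberg adjustment over all genes at 0.05. The p-values measure the spread between 2 replicates per group, pooled over the 8 groups. Arrays carry no counting depth, and 2 arrays per group limit the precision. On simulated data for the main comparison, over 19938 genes, the fit recovered 72% of genes changed by 1 on the log2 scale. Of those changed by 2 it recovered 98%, with 8 false calls in all. The simulation gave each gene independent noise of 1 spread on all arrays and changed 100 genes at each size. It held no array that stands apart and no deviation shared by same-numbered arrays, so it does not give the power in the real data.

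The genes and lists were chosen with earlier results of these data known. Up to 15 genes in each direction were named by size among those that passed with the same sign in both replicates, then by size among genes with an unadjusted p below 0.05 and no overlap. The 5 largest in each direction were named for differences between differences. Members of 34 lists were eligible when they passed or were among the 3 largest, and not all eligible members are given in the text. Further members were named as background to a list after their values were seen, as were S1pr1 and Clip3 near the threshold. No predicted, histone, small RNA or antigen receptor gene was named. Of 494 listed symbols 449 were measured. Alternatives were other sets of arrays, a replicate block, another scaling, a filter on dim genes, means of probe sets and another prior.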

Additional observations from a re-analysis of the deposited data

Results flagged for a closer look

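In 9 genes the CD103 difference in fresh ICOS-negative cells differed from that in ICOS-positive cells by limma's test of the difference itself. The log2 difference between both differences was 3.06 for Cybb, 1.60 for Noxa1, 1.54 for Cacna1d and 1.42 for Cd8a. It was -2.80 for Abi3bp, -2.39 for Ptgdr2, -1.52 for Kcnk1, -1.48 for Sdc1 and -1.19 for Slc27a6. The limma adjusted p-values lay between 0.0120 and 0.0328.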

How the results depend on the processing

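The counts moved with the arrays used and with other settings, in both directions. The fresh CD103 difference gave 17 genes, and 72 on fresh arrays only, 0 on its 4 arrays alone (limma, 924 at an unadjusted p below 0.05), 74 without the array that stands apart, 51 with the replicate block, 4 with dim genes left out, and 174 with the block and without that array, a setting chosen after seeing the data. Its own arrays left out in turn gave 5 to 16, and any of the 16, also chosen after seeing the data, 5 to 74. The test of the difference between both CD103 differences in fresh cells gave 9 genes. In the same order, without the setting of 4 arrays, it gave 62, 30, 71, 1 and 194. It gave 17 with quantile normalization applied again, 17 with probe set means, 28 with limma's trend and robust prior, and 0 to 8 with 1 array left out. The fresh minus activated test gave 0 genes, 5 without the array that stands apart, 42 with the block too, 1 with quantile normalization again, 1 with the trend and robust prior, and 0 to 7 with 1 array left out. The activated comparison gave 1 gene, 11 without the array that stands apart, 29 with the block too, and 0 to 29 with 1 array left out. The comparison in ICOS-positive cells gave 67 genes, and 308 on fresh arrays, 129 without that array, 279 with the block, 118 with quantile normalization, 20 without dim genes, 628 without that array and with the block, and 8 to 17 with 1 array left out. The causes were not tested.

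The replicate block and the pairing were read only here, since the labels do not say that a number marks an experiment. The same-numbered fresh arrays of both subsets deviated together (r = 0.547 across genes, which are not independent replicates), and all 17 genes passed with the block. Of the 17, 11 passed on fresh arrays only, 14 with quantile normalization and 15 with the trend and robust prior. With dim genes left out 4 passed, and most of the others were not tested because the filter removed them. Of 118 single-gene results 8 lost the call and 20 gained it on fresh arrays only, 17 lost it on the 4 arrays alone, 4 with dim genes left out, 3 with quantile normalization and 2 with the trend and robust prior, and 11 to 20 with 1 of the 4 compared arrays left out. With the block 0 lost it and 5 gained it. The filter on dim genes removed part of the 118 results, and of those it kept 86 were unchanged. Signs turned with 1 array left out, and the values then ran from -0.39 to 0.011 for Alas2, -0.17 to 1.78 for Cd74, -0.079 to 0.53 for Ddit4, -0.42 to 1.74 for Dusp1 (also -0.022), -2.68 to 0.075 for Gzma, -0.57 to 1.80 for H2-Ab1 and -0.12 to 2.17 for Lyz2, none of which passed.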
